A study of Mus musculus with 4 samples.

Results

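C-type lectin receptors are proteins with a C-type lectin fold, many of which sit on myeloid cells and bind sugars, lipids or proteins of microbes and of dying or neighbouring cells. The genes studied here are the rows of the expression table whose symbol begins with Clec and a digit, without Clec9a, Clec10a and Clec4e. This gave 30 genes of the 26026 in the table. Of these, 16 averaged 1 RPKM or more across the 4 libraries and are described, and 14 lay below that level. RPKM is reads scaled to gene length and library total, so that levels of different genes can be set beside each other. Comparisons between libraries also depend on how the libraries are scaled, so some differences below are given after rescaling as well.

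The cells were mouse bone marrow cultures labelled BMDC, the usual short form for bone marrow-derived dendritic cells, grown in RPMI medium with serum and Flt3 ligand, a growth factor for dendritic cell progenitors, and with the medium renewed on day 3. There were 4 groups, namely Nfkb1-/- (C57/B16) cells at day 5, wild-type (C57/B16) cells at day 5, Nfkb1-/- (C57/B16) cells at day 3 and wild-type (C57/B16) cells at day 3. Nfkb1 encodes p105 and its product p50, a DNA-binding NF-kB subunit, and the series description asks how p50 and RelA act together during this differentiation. Each group was 1 library of polyadenylated RNA from a culture, with the number of animals and any sorting of cells not given in the labels, so no difference below has a replicate check.

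The recovered library totals lay between 15255070 and 16215214 reads. Nfkb1 stood at 64.7 RPKM in the knockout against 114 RPKM in wild type at day 5, and at 56.0 RPKM in the knockout against 74.8 RPKM in wild type at day 3, a sum over the whole gene that does not show which exons were read. Dendritic cell markers were present, with all 7 cDC1, 7 cDC2 and 9 plasmacytoid markers listed above a mean of 1 RPKM. The 12 neutrophil markers nevertheless summed to far more, at 3009 RPKM in the knockout and 13931 RPKM in wild type at day 5, and at 24249.8 RPKM in the knockout and 34438 RPKM in wild type at day 3. Markers of several lineages were thus read in the same libraries, and in such bulk RNA fewer cells of a type and less RNA per cell cannot be told apart.

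As background, receptors of this family fall into activating and inhibitory kinds. Activating ones carry a tyrosine motif of their own, as Clec7a (Dectin-1, the receptor for fungal beta-glucan) does, or borrow the adaptors FcR-gamma (Fcer1g) or DAP12 (Tyrobp), and signal through the kinase Syk and the adaptor Card9 to NF-kB. Inhibitory ones, such as Clec4a2 and Clec12a, carry a motif that recruits phosphatases. In mouse most of these genes lie in clusters on chromosome 6: 15 of the 16 described genes and 23 of the 30 in all do so in RefSeq (GRCm38.p6), the exception among the described genes being Clec16a on chromosome 16.

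The family was dominated by a few genes. Clec7a, Clec4d, Clec12a and Clec4a1 were the 4 highest members in each library and held between 66.4% and 68.7% of the summed RPKM of the 16 genes. That sum was 669 RPKM in the knockout and 624 RPKM in wild type at day 5, and 707 RPKM in the knockout and 678 RPKM in wild type at day 3. Below these 4 came Clec4a3, Clec2d, Clec4n, Clec5a and Clec4a2 with means between 15.2 and 56.2 RPKM, then Clec1b, Clec2i and Clec4b1 between 9.10 and 10.7 RPKM, Clec16a and Clec4b2 between 3.28 and 3.79 RPKM, and Clec2f and Clec4a4 between 1.15 and 1.22 RPKM. Some neighbours in this order did not differ beyond counting error within a library, such as Clec7a and Clec12a in the knockout at day 5, Clec4a3 and Clec4n in wild type at day 5, and Clec4d and Clec12a in wild type at day 3.

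**Figure D1:**
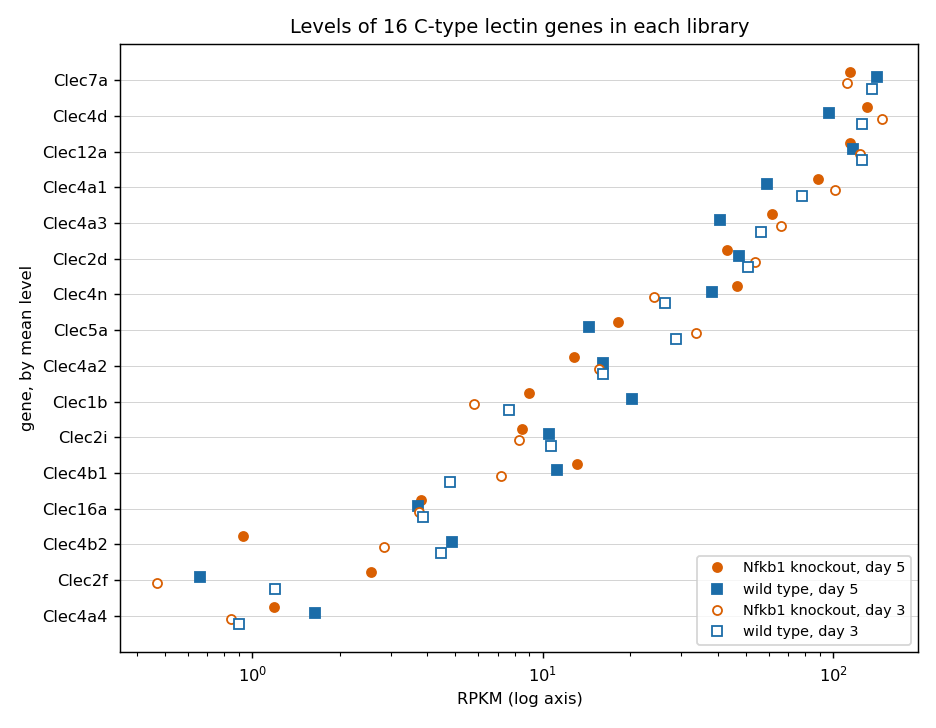
RPKM (log axis) of the 16 described genes in each library, ordered by mean level, with circles for Nfkb1 knockout and squares for wild type, filled at day 5 and open at day 3. The 4 highest genes lie between 59.3 and 147 RPKM, and Clec1b and Clec4b2 have their filled circle well to the left of their filled square.

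Differences between groups are given as log2 differences of RPKM + 1, called past a size rule of at least 1, and as ratios of RPKM with exact (Clopper-Pearson) 95% intervals from the recovered reads. Counting error is all these intervals hold, and reads copied by PCR with no molecular identifier cannot be taken as independent molecules. In the knockout against wild type at day 5, 3 of the 16 genes passed the size rule, 1 higher and 2 lower, where 4.39% of all 11786 genes averaging 1 RPKM or more did (1.16% higher and 3.22% lower). At day 3, 0 of the 16 passed, against 1.86% of all genes (0.976% higher and 0.882% lower). The median of the 16 differences was -0.01 at day 5, where the median of all genes was 0.01, and -0.04 at day 3, where it was 0.13. By their intervals in the values as deposited, 6 members lay above a ratio of 1 at day 5, 5 below it and 5 across it. At day 3 the counts were 5, 4 and 7. Such intervals were not computed over all genes, so these counts have no share of all genes to be read against. The members lay on both sides of 1 at each day, but the day 3 counts depend on the scaling. Rescaling the libraries by their median ratio takes the day 3 intervals of Clec4d, Clec4a3, Clec5a and Clec4b1 across 1. It takes those of Clec12a, Clec4n and Clec4a2 below 1, while that of Clec4a1 stays above.

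**Figure D2:**
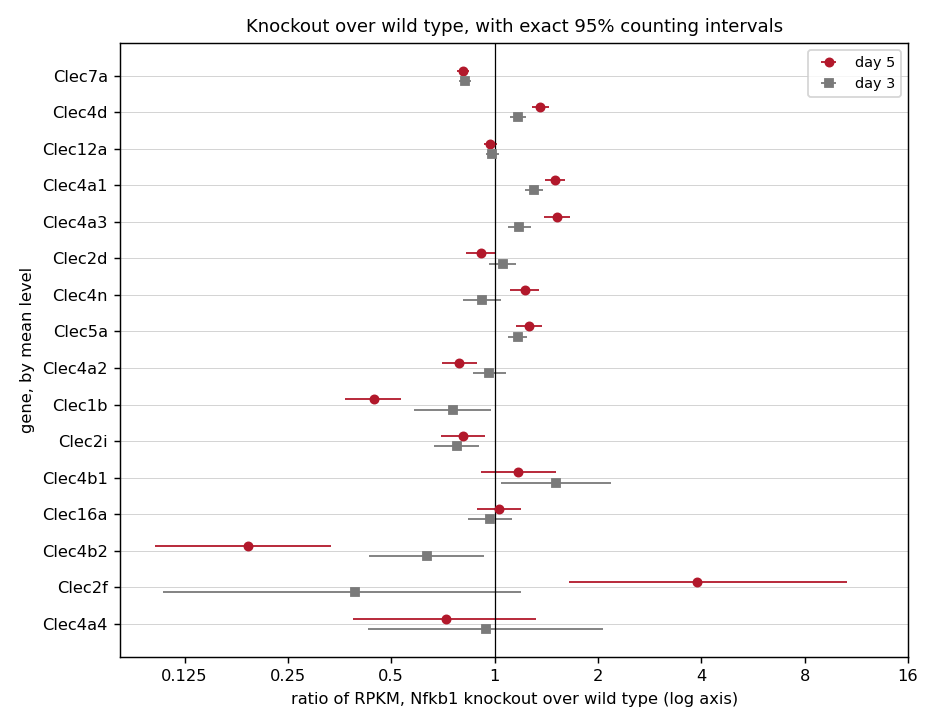
Ratio of RPKM in the Nfkb1 knockout over wild type (log axis) for the 16 genes, with red circles for day 5, grey squares for day 3 and bars for exact 95% counting intervals. At day 5 Clec4b2 (0.191) and Clec1b (0.444) lie far to the left of 1 and Clec2f (3.89) to the right on a wide interval, while Clec4d, Clec4a1, Clec4a3 and Clec5a lie to the right of 1 at both days.

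Among activating receptors, Clec7a was the highest gene in both wild-type libraries and lower in the knockout. It stood at 114 RPKM in the knockout against 141 RPKM in wild type at day 5, and at 111 RPKM in the knockout against 136 RPKM in wild type at day 3. The day 5 ratio was 0.810 (0.777 to 0.844), the day 3 ratio was 0.819 (0.786 to 0.854), and both were short of the size rule. Its row carries the RefSeq identifier of a non-coding transcript of the gene, so which variants were counted is not settled.

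Clec4d (also MCL or Dectin-3), which couples to FcR-gamma and forms a complex with Mincle, the product of Clec4e, went the other way. It stood at 131 RPKM in the knockout against 96.5 RPKM in wild type at day 5, and at 147 RPKM in the knockout against 126 RPKM in wild type at day 3. The day 5 ratio was 1.36 (1.28 to 1.44) and the day 3 ratio was 1.17 (1.11 to 1.23). The day 3 difference of 0.23 was 0.06 once the libraries were rescaled by their median ratio, a shift that takes that interval across 1. The order of Clec4d and Clec7a within a library differed by genotype, Clec4d being above Clec7a in both knockout libraries and below it in both wild-type ones. The ratio of Clec4d to Clec7a in RPKM was 1.15 (1.09 to 1.20) in the knockout and 0.685 (0.650 to 0.720) in wild type at day 5. At day 3 it was 1.33 (1.26 to 1.39) in the knockout and 0.928 (0.884 to 0.974) in wild type. This ratio was computed after the values of both genes were seen.

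Clec4n (Dectin-2, an FcR-gamma-coupled receptor for fungal mannans) stood at 46.8 RPKM in the knockout against 38.2 RPKM in wild type at day 5, and at 24.2 RPKM in the knockout against 26.3 RPKM in wild type at day 3. The day 5 ratio was 1.22 (1.11 to 1.35), and the interval at day 3 included 1, from 0.809 to 1.04. The day 3 difference of -0.12 was -0.28 once the libraries were rescaled by their median ratio. That shift takes the whole day 3 interval below 1. Clec5a (MDL-1), which signals through DAP12, stood at 18.1 RPKM in the knockout against 14.4 RPKM in wild type at day 5, and at 33.7 RPKM in the knockout against 28.9 RPKM in wild type at day 3. As deposited it was therefore higher in the knockout at both days, with ratios of 1.26 (1.15 to 1.38) and 1.17 (1.09 to 1.25). It was lower at day 5 than at day 3 in both genotypes. The day 3 genotype difference of 0.22 was 0.05 after median ratio rescaling, a shift that takes that interval across 1.

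The receptor genes Clec4b1 and Clec4b2 (DCAR and its close relative), both held to be activating through FcR-gamma, lie in the same cluster. Clec4b1 stood at 13.2 RPKM in the knockout against 11.2 RPKM in wild type at day 5, and at 7.2 RPKM in the knockout against 4.78 RPKM in wild type at day 3. Its ratio was 1.17 at day 5, with an interval from 0.914 to 1.51, and 1.51 (1.04 to 2.19) at day 3, where it had 80 reads in the knockout and 50 in wild type. The day 3 difference of 0.50 was 0.36 once the libraries were rescaled by their median ratio. With a common sum of RPKM in each library it was 0.43. Either shift takes the low end of the day 3 interval below 1. Clec4b2 stood at 0.933 RPKM in the knockout against 4.87 RPKM in wild type at day 5, and at 2.84 RPKM in the knockout against 4.46 RPKM in wild type at day 3.

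Clec4b2 had the largest genotype difference of the 16 genes. At day 5 it had 15 reads in the knockout and 82 in wild type, a ratio of 0.191 (0.103 to 0.334) and a log2 difference of -1.60, past the size rule. At day 3 it had 48 reads in the knockout and 71 in wild type, a ratio of 0.636 (0.432 to 0.930) and a difference of -0.51. The genotype difference was thus larger at day 5 by -1.09, which also passed the size rule, as did 3.63% of all genes (1.0% upward and 2.63% downward). It was -0.96, short of the rule, once the libraries had been rescaled by their median ratio.

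The knockout at day 5 was also the library with the lowest sums of basophil and of neutrophil markers. The same library had the lowest sums of B cell (119 RPKM), T and NK cell (5.75 RPKM), plasmacytoid (329 RPKM) and cDC2 markers (342 RPKM). The plasmacytoid sum was mostly Bst2 (158 RPKM) and Ly6d (74.2 RPKM), and the cDC2 sum mostly Sirpa (196 RPKM) and Itgam (86.8 RPKM). Of the 9 plasmacytoid markers, 6 were higher in the knockout at day 5 than at day 3, with a median of 0.41. The 6 measured basophil and mast cell markers summed to 40.6 RPKM in the knockout and 237 RPKM in wild type at day 5, and to 135 RPKM in the knockout and 159 RPKM in wild type at day 3. All 6 of them, among them Prss34 and Mcpt8, passed the size rule downward in the knockout at day 5, as did 11 of the 12 neutrophil markers. Of the cDC1 markers 6 of 7 did so, and of the plasmacytoid markers 3 of 9. The part of these lists in the value of Clec4b2 was not tested.

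To show how alike the surroundings of these genes are, the 250 bases before the annotated start of Clec4b1 and Clec4b2 are printed from RefSeq (GRCm38.p6), 5′ to 3′ on the plus strand, at chr6:123049712-123049961 and chr6:123172773-123173022. Capitals mark matches to GAGGAA on either strand, the core bound by PU.1, a regulator of myeloid genes.
Clec4b1: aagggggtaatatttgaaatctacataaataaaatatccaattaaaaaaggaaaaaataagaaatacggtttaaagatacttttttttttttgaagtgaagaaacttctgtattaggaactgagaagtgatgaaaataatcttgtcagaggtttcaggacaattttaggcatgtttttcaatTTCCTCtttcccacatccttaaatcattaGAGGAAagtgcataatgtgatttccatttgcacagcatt
Clec4b2: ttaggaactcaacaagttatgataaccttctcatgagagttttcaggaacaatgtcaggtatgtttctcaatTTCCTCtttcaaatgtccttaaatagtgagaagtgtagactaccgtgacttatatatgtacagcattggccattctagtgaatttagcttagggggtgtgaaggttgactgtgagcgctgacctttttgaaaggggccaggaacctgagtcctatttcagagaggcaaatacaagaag

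In the local alignment of these windows, bases -138 to -1 of Clec4b1 (counted from the start) matched bases -250 to -112 of Clec4b2, with 106 of 134 aligned bases identical (79.1%) and 9 gap positions. The alignment score was 63, and the next highest among the 91 pairs of windows of the described genes and Clec4e was 19. The TTCCTC at -68 to -63 in Clec4b1 and that at -178 to -173 in Clec4b2 lie in the matched stretch. The second Clec4b1 match, GAGGAA at -39 to -34, has no counterpart in the Clec4b2 window, and the annotated start of Clec4b2 lies further from the shared stretch. The transcripts of Clec4b2 shared no run of 50 bases with those of another gene in GENCODE M21, so its reads were not open to mixing by such runs. Of the runs of Clec4b1, 8.68% were shared, most of them with Clec4a2.

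A window was at hand for 13 of the 16 genes, without Clec2f, Clec4a4 and Clec4n. Of these 13, 9 held GAGGAA or its reverse complement, against 25.9% of 27025 genes. TTGCNNAA, the C/EBP motif, on either strand was in 2 of 13 against 10.8%. TATAAA, the sequence of the TATA box, on either strand was in 3 of 13 against 14.3%. The TATAAA matches in these genes lay between -209 and -82. They count the sequence at any place in the window, not TATA boxes in use. The NF-kB consensus on either strand was in 0 of 13 against 4.46%, which says only that this form is not in these 250 bases. None of the motifs searched overlapped another in the sequences printed here.

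Among inhibitory receptors and their relatives, Clec12a (MICL), which carries an inhibitory motif, had the ratios nearest to 1 among the 4 highest genes in the values as deposited. After median ratio rescaling Clec4d was nearer at day 3, at 0.06. Clec12a stood at 114 RPKM in the knockout against 117 RPKM in wild type at day 5, and at 124 RPKM in the knockout against 126 RPKM in wild type at day 3. Both intervals of the ratio included 1, running from 0.930 to 1.02 at day 5 and from 0.945 to 1.03 at day 3. The day 3 difference of -0.02 was -0.19 after median ratio rescaling and -0.11 with a common sum of RPKM, both outside that day's counting interval.

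The DCIR genes lie in a single stretch of chromosome 6. Clec4a1 (DCIR4) stood at 88.7 RPKM in the knockout against 59.3 RPKM in wild type at day 5, and at 101 RPKM in the knockout against 78.0 RPKM in wild type at day 3, ratios of 1.5 (1.40 to 1.60) and 1.30 (1.22 to 1.38). Its neighbour Clec4a3 (DCIR3) stood at 61.7 RPKM in the knockout against 40.6 RPKM in wild type at day 5, and at 66.4 RPKM in the knockout against 56.3 RPKM in wild type at day 3, ratios of 1.52 (1.39 to 1.66) and 1.18 (1.09 to 1.28). As deposited, both were higher in the knockout at both days without reaching the size rule. Median ratio rescaling takes the day 3 interval of Clec4a3 across 1.

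Clec4a2 (DCIR1), a receptor of this group with an inhibitory motif, stood at 12.8 RPKM in the knockout against 16.2 RPKM in wild type at day 5. At day 3 it stood at 15.6 RPKM in the knockout against 16.1 RPKM in wild type. It was lower in the knockout at day 5, with a ratio of 0.789 (0.7004 to 0.889), while the interval at day 3 ran from 0.862 to 1.08. Its day 3 difference of -0.05 was -0.21 after median ratio rescaling, a shift that takes that interval below 1. Clec4a4 (DCIR2), known from dendritic cells of the CD11b-positive kind, stood at 1.19 RPKM in the knockout against 1.65 RPKM in wild type at day 5, and at 0.847 RPKM in the knockout against 0.900 RPKM in wild type at day 3. With 15 to 29 reads a library, both of its intervals included 1, and 15.7% of its runs of 50 bases were shared, most with Clec4a2, so reads could have been split between these genes. Clec4a4 reached a mean of 1 RPKM through the wild-type library at day 5. The other libraries averaged 0.979 RPKM, so that library had to be high for Clec4a4 to be counted.

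**Figure D3:**
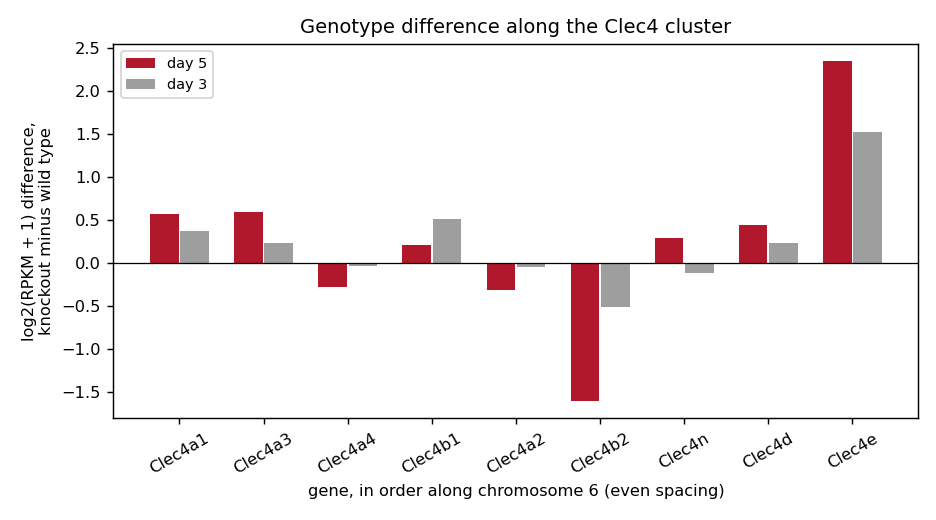
Difference in log2(RPKM + 1), Nfkb1 knockout minus wild type, for the 9 neighbouring Clec4 genes in their order along chromosome 6, with red bars for day 5 and grey bars for day 3. At both days Clec4a1, Clec4a3, Clec4b1, Clec4d and Clec4e have bars above 0, the tallest being Clec4e at 2.34 and 1.51, and Clec4b2 has the lowest bar, -1.60 at day 5.

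Along chromosome 6 the order of protein-coding genes in RefSeq is Clec4a1, Clec4a3, Clec4a4, Clec4b1, Clec4a2, Clec4b2, Clec4n, Clec4d and Clec4e. By their intervals in the values as deposited, Clec4a1, Clec4a3 and Clec4d were above a ratio of 1 at each day. Clec4b1 was above 1 at day 3 and Clec4b2 below 1 at each day, likewise as deposited. Clec4e, which is not counted here, stood at 136 RPKM in the knockout against 26.0 RPKM in wild type at day 5 and at 139 RPKM in the knockout against 48.0 RPKM in wild type at day 3, differences of 2.34 and 1.51 beside 0.44 and 0.23 for its neighbour Clec4d.

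The summed level of the 12 monocyte and macrophage markers was higher in the knockout libraries, as Clec4a1 was. It was 1752 RPKM in the knockout and 1178 RPKM in wild type at day 5, and 1949 RPKM in the knockout and 1313 RPKM in wild type at day 3, with medians of the genotype difference of 0.43 and 0.46. Ly6c2 and Csf1r, the highest of that list, differed by 1.04 and 0.62 at day 5 and the next, Cd68, by -0.09, and 3 of the 12 passed the size rule upward and 1 downward. Their part in the values of Clec4a1, Clec4a3, Clec4d and Clec5a was not tested. After median ratio rescaling, the day 3 differences of Clec4a3, Clec4d and Clec5a shrank to 0.07, 0.06 and 0.05 and that of Clec4a1 to 0.21, while those at day 5 stayed between 0.29 and 0.57.

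Clec1b (CLEC-2), the receptor for podoplanin that is best known from platelets and megakaryocytes, was lower in the knockout. It stood at 8.99 RPKM in the knockout against 20.3 RPKM in wild type at day 5, and at 5.80 RPKM in the knockout against 7.68 RPKM in wild type at day 3. Its ratio was 0.444 (0.367 to 0.535) at day 5, a log2 difference of -1.09 past the size rule, and 0.755 (0.582 to 0.978) at day 3. The wild-type library at day 5 stood apart, and the other 3 lay below 10 RPKM.

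Wild type at day 5 was also the library with the highest sum of megakaryocyte and platelet markers. It had the highest sums of cDC1, plasmacytoid, basophil and mast cell, endothelial and stromal markers too. The endothelial sum there, 36.0 RPKM, was mostly Vwf at 30.8 RPKM. The other measured endothelial markers were each highest in another library. The stromal sum there, 6.53 RPKM, came from 2 measured genes. The cDC1 markers summed to 183 RPKM in the knockout and 383 RPKM in wild type at day 5. At day 3 they summed to 152 RPKM in the knockout and 182 RPKM in wild type. The 11 megakaryocyte and platelet markers summed to 433 RPKM in the knockout and 939 RPKM in wild type at day 5. Their day 3 sums were 443 RPKM in the knockout and 389 RPKM in wild type. At day 5 all 11 were lower in the knockout, 6 of them past the size rule, with a median of -1.0 and with Ppbp at -1.27 and Itga2b at -1.31. At day 3 their median was 0.10, beside -0.35 for Clec1b, and after median ratio rescaling it was -0.07, beside -0.50 for Clec1b. None of the 11 stood at the value of 1 read in every library. Their part in the value of Clec1b was not tested, nor was that of the other lists.

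Clec12b and Clec1b overlap in RefSeq and the use of strand in counting is not given, but Clec12b itself had at most 2 reads in any library. Of the runs of 50 bases of Clec1b transcripts 3.23% were shared, most with Clec9a. Because Clec1b was lower past the rule at day 5 and Clec4a1 is the highest in level of the genes with a day 5 ratio near 1.5, the 250 bases before their starts are shown as well, at chr6:129397047-129397296 and chr6:122921598-122921847, both on the plus strand. Capitals mark TATAAA on either strand in Clec1b and GAGGAA on either strand in Clec4a1. The Clec1b window held 2 matches to the first and the Clec4a1 window 2 to the second.
Clec1b: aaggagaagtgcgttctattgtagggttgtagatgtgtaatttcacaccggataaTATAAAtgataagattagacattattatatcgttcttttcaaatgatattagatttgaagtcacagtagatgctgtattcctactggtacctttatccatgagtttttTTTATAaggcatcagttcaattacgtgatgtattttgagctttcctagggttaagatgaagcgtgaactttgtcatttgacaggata
Clec4a1: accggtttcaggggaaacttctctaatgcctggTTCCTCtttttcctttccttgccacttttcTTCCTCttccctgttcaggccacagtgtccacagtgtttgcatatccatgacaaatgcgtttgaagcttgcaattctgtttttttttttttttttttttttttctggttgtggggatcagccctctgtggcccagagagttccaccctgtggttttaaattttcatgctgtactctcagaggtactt

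The Clec2 genes encode ligands more than receptors, their products being bound by receptors of the NKR-P1 family on natural killer cells. Clec2d (Clr-b) stood at 43.1 RPKM in the knockout against 47.3 RPKM in wild type at day 5, and at 53.7 RPKM in the knockout against 50.9 RPKM in wild type at day 3. Its difference was -0.13 at day 5 and 0.08 at day 3, and the day 3 value turned negative under both rescalings of the libraries. Clec2i (Clr-g) stood at 8.50 RPKM in the knockout against 10.5 RPKM in wild type at day 5, and at 8.28 RPKM in the knockout against 10.7 RPKM in wild type at day 3. It was lower in the knockout at both days by its intervals, with ratios of 0.809 (0.696 to 0.940) and 0.776 (0.668 to 0.902).

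Clec2f rested on few reads. It had 26 reads in the knockout and 7 in wild type at day 5, and 5 in the knockout and 12 in wild type at day 3, which is 2.57 RPKM in the knockout and 0.661 RPKM in wild type at day 5, and 0.469 RPKM in the knockout and 1.20 RPKM in wild type at day 3. Its ratio was 3.89 (1.64 to 10.6) at day 5, a difference of 1.10 past the size rule, and 0.392 at day 3, with an interval from 0.108 to 1.20. It reached a mean of 1 RPKM through the knockout library at day 5, the mean of the other 3 being 0.776 RPKM, so that library had to be high for the gene to be counted here. A limit of at least 20 reads on average, added after the data were seen, removed it together with Clec4a4.

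Clec16a carries the family name but encodes an endosomal protein of autophagy and mitophagy. It stood at 3.81 RPKM in the knockout against 3.71 RPKM in wild type at day 5, and at 3.77 RPKM in the knockout against 3.89 RPKM in wild type at day 3, within counting error throughout.

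The 14 genes below a mean of 1 RPKM were Clec1a, Clec2e, Clec2g, Clec2h, Clec2l, Clec2m, Clec3a, Clec3b, Clec4f, Clec4g, Clec11a, Clec12b, Clec14a and Clec18a. The highest of them were Clec1a at a mean of 0.572 RPKM and Clec4g at 0.450 RPKM, just outside the limit, where Clec2f at 1.22 RPKM and Clec4a4 at 1.15 RPKM were just inside. Of the 14, 5 (Clec2h, Clec2m, Clec3a, Clec4f and Clec18a) stood at the value of 1 read in every library, which the table does not tell apart from no read. The other 9 had at most 19 reads in any library. Clec4f, a receptor of liver macrophages, and Clec14a, a receptor of endothelium, were among the genes at or near that floor.

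Between the days, 1 of the 16 genes passed the size rule in the knockout, Clec2f, and 2 did in wild type, Clec1b and Clec4b1, all of them higher at day 5. The shares over all genes were 3.61% in the knockout (0.594% higher and 3.01% lower) and 3.85% in wild type (1.8% higher and 2.05% lower). Clec1b was higher at day 5 by 0.56 in the knockout and by 1.29 in wild type, with ratios of 1.55 (1.21 to 1.99) in the knockout and 2.64 (2.17 to 3.23) in wild type. Clec4b1 was higher by 0.79 in the knockout and by 1.08 in wild type, with ratios of 1.83 (1.38 to 2.44) in the knockout and 2.35 (1.68 to 3.33) in wild type. After median ratio rescaling the wild-type value of Clec4b1 was 0.93, short of the rule. Clec2f, on the few reads given above, differed by 1.28 in the knockout and by -0.40 in wild type.

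**Figure D4:**
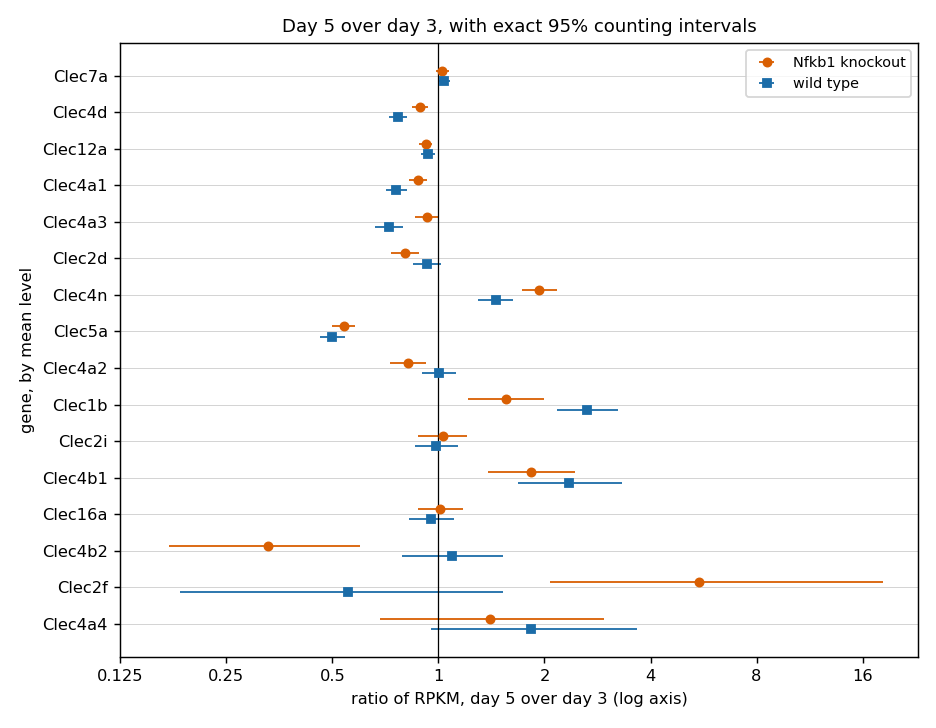
Ratio of RPKM at day 5 over day 3 (log axis) for the 16 genes, with orange circles for the Nfkb1 knockout, blue squares for wild type and bars for exact 95% counting intervals. Clec4n, Clec1b and Clec4b1 lie right of 1 and Clec5a lies near 0.5 in both genotypes, and Clec4b2 lies at 0.329 in the knockout and 1.09 in wild type.

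Clec4n was also higher at day 5 in both genotypes, by 0.92 in the knockout and 0.52 in wild type, with ratios of 1.94 (1.73 to 2.17) and 1.45 (1.30 to 1.63). In the knockout it reached 1.01, past the rule, with all libraries brought to 1 common sum of RPKM. Clec5a was lower at day 5, with differences of -0.86 in the knockout and -0.95 in wild type, ratios of 0.538 (0.4996 to 0.580) and 0.499 (0.460 to 0.542), and the wild-type difference reached -1.12, past the rule, after median ratio rescaling. Clec4d, Clec4a1 and Clec12a were lower at day 5 in both genotypes by their intervals, with differences between -0.39 and -0.10. With a common sum of RPKM the knockout differences were smaller, at -0.08 for Clec4d, -0.10 for Clec4a1 and -0.03 for Clec12a, which is then within its counting error. Clec4b2 differed by -0.99 in the knockout and by 0.11 in wild type, and the wild-type sign turned after median ratio rescaling. As deposited, Clec7a and Clec2i had intervals that included 1 in both genotypes, and so had Clec16a and Clec4a4. The wild-type difference of Clec7a went from 0.05 to -0.12 after median ratio rescaling, a shift that takes its interval below 1. Its knockout difference went from 0.04 to 0.12 with a common sum of RPKM, which takes that interval above 1.

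The signalling partners of these receptors were read against the shares of all genes. Of 26 genes in a list of receptor adaptors, kinases, phosphatases and downstream factors, all measured, 0 were higher and 1 lower past the size rule in the knockout at day 5, where 4.39% of all genes passed, and 0 at day 3, where 1.86% did. The medians were -0.11 at day 5 and 0.03 at day 3. The day 3 median turned negative under both rescalings. The gene past the rule was Src, a tyrosine kinase, at -1.03. Fcer1g stood at 395 RPKM in the knockout against 373 RPKM in wild type at day 5, and at 425 RPKM in the knockout against 481 RPKM in wild type at day 3. Tyrobp stood at 754 RPKM in the knockout against 951 RPKM in wild type at day 5, and at 945 RPKM in the knockout against 990.2 RPKM in wild type at day 3. Syk stood at 76.7 RPKM in the knockout against 86.5 RPKM in wild type at day 5 and at 104 RPKM in the knockout against 108 RPKM in wild type at day 3, with differences of -0.17 and -0.05. Card9 stood at 37.4 RPKM in the knockout against 34.4 RPKM in wild type at day 5, and at 38.6 RPKM in the knockout against 34.6 RPKM in wild type at day 3. In each library the RPKM of Fcer1g was above that of Clec4d and Clec4n, and the RPKM of Tyrobp above that of Clec5a.

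Among other genes named for C-type lectin domains, most differences at day 5 were negative. Of 44 in the list, which also took in the galectin gene Lgals3 although it is not of this fold, 25 were measured and 22 of these lay below 0 at day 5. Of the 25, 2 were higher and 6 lower past the rule in the knockout at day 5, where 1.16% of all genes were higher and 3.22% lower, with a median of -0.70 beside 0.01 for all genes. At day 3, 1 was higher and 1 lower, where 0.976% and 0.882% of all genes were, with a median of -0.23 beside 0.13. The largest day 5 differences were those of Cd209a, a lectin of dendritic cells, at -2.83, Fcer2a, the low-affinity IgE receptor, at -1.89, Prg2, the major basic protein of eosinophils, at -1.83 and Klra17 at -1.56. The genes higher at day 5, named after their values were seen, were Cd302 at 1.30 and Cd69, an activation antigen, at 1.07. Among NKR-P1 genes, likewise named after the values were seen, Klrb1f, a receptor for the product of Clec2i, stood at 10.05 RPKM in the knockout against 8.65 RPKM in wild type at day 5, and at 6.47 RPKM in the knockout against 4.06 RPKM in wild type at day 3. Klrb1b, the receptor for the product of Clec2d, stood at 2.33 RPKM in the knockout against 5.29 RPKM in wild type at day 5, and at 1.03 RPKM in the knockout against 1.73 RPKM in wild type at day 3. Of the genes left out by the rule, Clec9a differed by -1.80 at day 5 and -0.88 at day 3, and Clec10a by -1.59 and -0.50.

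An additive limma fit over all genes with genotype and day as terms, which leaves 1 residual degree of freedom and counts any change of the genotype difference as spread, was run as support. After Benjamini-Hochberg adjustment at 0.05 it called 0 of the 16 genes and 0.0% of all genes for genotype, while 4 of the 16 and 2278 of 11786 had an unadjusted p under 0.05. The smallest adjusted p among the 16 for genotype in limma was 0.146, for Clec4b2 at -1.06 ± 0.27 (SE), lower in both knockout libraries. For day it called 0 of the 16 and 1.15% of all genes, while 4 of the 16 and 2098 of 11786 had an unadjusted p under 0.05. The smallest adjusted p values for day in limma were 0.0609 for Clec5a at -0.91 ± 0.15 (SE) and 0.0647 for Clec4b1 at 0.93 ± 0.16 (SE), each in the same direction in both genotypes.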

How the data were processed

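Polyadenylated RNA of 4 libraries, 1 for each genotype and day, was measured by RNA-seq. Cells were lysed in trizol and the library kit was Kapa mRNA HyperPrep, per the labels' protocols. HISAT2, SAMtools and the mm9 build are named in the submitters' processing notes. Which tool counted the reads, on which annotation and with which strand setting is not given in the sources used here. RPKM values were deposited by the authors, per the file headers, for 26026 genes, with 1 column per library, and no value was 0.

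Library totals and whole reads were recovered from the steps of the RPKM values (tolerance 2e-05 reads, widened with the count for large counts). Clec1a, Clec2f and Clec2i had no reference length, so a whole factor may be missing from their reads, which would make their intervals too wide. The lowest values equal 1 read, and the table does not settle whether 1 read was added throughout or set in place of 0. Between 69.6% and 74.4% of the recovered totals fell in listed genes. Values were analysed as log2(RPKM + 1) for the 11786 genes averaging 1 RPKM or more, with a size rule of 1 since groups had 1 library each. Such differences understate the change of low genes. limma 3.58.1 in R 4.3.3 gave the additive fit (threshold 0.05, Benjamini-Hochberg over all genes), tested on simulated data. Promoter windows came from RefSeq (GRCm38.p6, not the mm9 build of the reads) and were aligned with Biopython 1.88, and runs of 50 bases were compared over GENCODE M21 transcripts.

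All 16 members averaging 1 RPKM or more were named. From the signalling list and the list of other lectin genes, up to 4 genes with the largest genotype difference past the rule were named, with Syk, Card9, Fcer1g and Tyrobp, and from marker lists up to 3 of the highest genes. The members and lists were chosen with earlier results of these data known. The marker lists cover neutrophils (median genotype difference -2.20 at day 5), monocytes and macrophages (0.43), cDC1 (-1.35), cDC2 (-0.51), plasmacytoid dendritic cells (-0.65), megakaryocytes (-1.00), endothelium (-0.53), stroma (-0.43), B cells (-0.93), T and NK cells (-0.71), and basophils and mast cells (-2.00). Alternatives changed the pseudocount, the filter, the scaling of the libraries and the limma settings 1 at a time.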

Additional observations from a re-analysis of the deposited data

Results flagged for a closer look

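Clec2f lay on opposite sides of 0 at the 2 days. Its knockout minus wild type difference was 1.10 at day 5 and -0.58 at day 3, a change of 1.68. The same 4 values give a day 5 minus day 3 difference of 1.28 in the knockout and -0.40 in wild type. Clec4b2 differed between day 5 and day 3 by -0.99 in the knockout and by 0.11 in wild type, a change of -1.09. These differences between groups were not tested, with 1 library a group, and Clec2f held 5 to 26 reads a library.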

How the results depend on the processing

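With 1 library a group no replicate could be left out. No paired analysis was possible because the labels give no replicate numbers and each group has a single library. The counts past the size rule are small, so single genes near the rule decide them. With a pseudocount of 0.1 RPKM, 1 of the 16 genes passed for genotype at day 3 and 2 for day in the knockout. Of all 11786 genes, 228 were then higher and 221 lower for genotype at day 3. For day in the knockout 152 were higher and 529 lower. With a pseudocount of 5 RPKM, 0 passed for genotype at day 5, for day in wild type or in the knockout, or for the change of the genotype difference, which follows from the shrinking of low values. With a mean of at least 5 RPKM, which leaves 12 genes, 1 (Clec1b) passed for genotype at day 5. For day in the knockout 0 did, and 0 for the change. Of the 8059 genes left in all, 90 were higher and 228 lower for genotype at day 5. The counts were 28 and 239 for day in the knockout and 39 and 170 for the change. Rescaling by the median ratio left 1 for the change, where 151 of all genes were higher and 214 lower. A common sum of RPKM in each library gave 2 for day in the knockout, where 82 of all genes were higher and 318 lower. A minimum average of 20 reads, added after the data were seen, leaves 14 genes. It gave 0 for day in the knockout and 1 for the change. Of the 11137 genes left in all, 30 were higher and 317 lower for day in the knockout, and 36 and 240 for the change. In limma, members called for day were 2 with a mean of at least 5 RPKM, 1 after rescaling by the median ratio and 1 with an intensity trend, against 0 in the fit reported, while 0 were called for genotype under each setting run. All genes called for genotype by limma numbered 0, but 20 with a mean of at least 5 RPKM, 19 with a trend and 4 with robust estimation. The median of all genes for genotype at day 3 was 0.13 and moved to -0.02 under the median ratio rescaling, which took the split of all genes past the rule there to 70 higher and 156 lower, against 115 and 104. For day in wild type that median was 0.16 and the split became 145 higher and 346 lower, against 212 and 242. Of 320 recomputed differences of single genes under the pseudocounts and rescalings, 286 stayed within counting error of the value reported, 34 moved further and 0 past the rule changed sign. The day 5 genotype differences of Clec1b (-1.11 and -1.06) and Clec4b2 (-1.60 and -1.59) stayed past the rule under both rescalings. Few reads limit Clec2f, Clec4a4 and Clec4b2, and each comparison rests on 1 library a side.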
